A study of Rattus norvegicus with 2 samples.

Results

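The genes described here are those of the rat major histocompatibility complex, named RT1 in this species, and of the machinery that loads its proteins with peptides. They were taken by name: every gene whose symbol starts with RT1-, and B2m, Tap1, Tap2, Tapbp, Psmb8, Psmb9, Psmb10, Cd74, Ciita, Nlrc5, Calr, Canx and Pdia3. In all 67 of the 23282 genes of the deposited table met this rule, 55 of them RT1 genes. Of the 13 other names 12 had a row, and Nlrc5 is not analysed here. Expression was measured by RNA sequencing, in RPKM, which scales a gene's reads by the length of its model and by the depth of the library, in 2 libraries of embryonic stem cells of the rat (Rattus norvegicus), replicate 1 and replicate 2. Both came from total RNA of DA-EC8/Rrrc, a Dark Agouti line held by the Rat Resource Center, and the series design calls them biological replicates. The cells were untreated wild-type cells at passage 30 with a karyotype given as normal, grown in 2i medium, in which inhibitors of MEK and GSK3 hold rat stem cells undifferentiated. Both samples form 1 group of 1 cell line, so no condition is contrasted and no test between groups was possible.

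Class I molecules pair a heavy chain with the light chain beta-2 microglobulin and show peptides from inside the cell to CD8 T cells and natural killer cells. The peptides are cut by the proteasome, pumped into the endoplasmic reticulum by the transporter Tap1-Tap2, and loaded with the help of tapasin (Tapbp), calreticulin (Calr), calnexin (Canx) and the disulphide isomerase Pdia3. Class II molecules show peptides taken up from outside to CD4 T cells, and are found mainly on professional antigen-presenting cells, where the transactivator Ciita switches on their genes and the invariant chain Cd74 escorts them. Interferon gamma raises most of these genes in many cell types, while Calr, Canx and Pdia3 also fold other glycoproteins in every cell. Early embryonic cells and embryonic stem cells of the mouse are known for low class I levels.

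Promoter sequences of 5 members show the elements through which class I and processing genes are known to be switched on and come from members of intermediate and low level, between 13.2 RPKM for RT1-CE16 and 0.849 RPKM for RT1-A2. They were read from RefSeq on GRCr8, the assembly of a Brown Norway rat, as the 250 bases before the annotated gene start, written 5′ to 3′ on the gene's strand. Capitals mark matches, on either strand, to the kappaB element of class I promoters (GGGG, then ATT, then CCCC), the Y box (CTGATTGG), the X2 box (TGACGC) or the interferon response element (GAAA, any 2 bases, GAAA).
RT1-CE16, chr20:3265444-3265693, minus strand: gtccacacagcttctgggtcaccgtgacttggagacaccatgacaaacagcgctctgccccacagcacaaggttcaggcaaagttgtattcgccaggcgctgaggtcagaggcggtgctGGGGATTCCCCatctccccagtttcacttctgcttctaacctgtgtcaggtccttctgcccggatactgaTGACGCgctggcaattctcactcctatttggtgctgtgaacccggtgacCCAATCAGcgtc
RT1-A2, chr20:4872621-4872870, plus strand: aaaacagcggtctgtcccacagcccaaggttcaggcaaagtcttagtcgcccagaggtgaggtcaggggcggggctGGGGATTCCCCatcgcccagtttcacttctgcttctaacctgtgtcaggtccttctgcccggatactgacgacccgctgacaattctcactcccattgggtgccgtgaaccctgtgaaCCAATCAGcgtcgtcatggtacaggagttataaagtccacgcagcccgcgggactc
B2m, chr3:129549080-129549329, plus strand: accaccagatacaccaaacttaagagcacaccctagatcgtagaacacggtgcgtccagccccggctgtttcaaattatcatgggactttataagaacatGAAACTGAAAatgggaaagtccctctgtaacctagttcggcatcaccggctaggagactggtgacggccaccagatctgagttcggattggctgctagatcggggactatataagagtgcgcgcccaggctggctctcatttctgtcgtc
Psmb10, chr19:50743293-50743542, minus strand: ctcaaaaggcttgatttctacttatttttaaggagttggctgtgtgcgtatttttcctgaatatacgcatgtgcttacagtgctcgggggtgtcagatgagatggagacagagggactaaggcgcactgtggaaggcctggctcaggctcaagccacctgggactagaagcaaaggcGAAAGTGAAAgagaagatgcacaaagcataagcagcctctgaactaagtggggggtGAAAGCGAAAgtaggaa
Tap1, chr20:4668544-4668793, minus strand: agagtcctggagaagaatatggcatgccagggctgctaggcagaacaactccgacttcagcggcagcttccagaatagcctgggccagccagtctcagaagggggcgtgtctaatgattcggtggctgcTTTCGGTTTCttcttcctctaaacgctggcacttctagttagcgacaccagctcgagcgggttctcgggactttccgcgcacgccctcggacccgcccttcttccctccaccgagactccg
RT1-CE16, the highest RT1 gene, held the kappaB, X2 and Y letters, and RT1-A2, a class Ia gene below 1 RPKM, held the kappaB and Y letters. B2m and Tap1 each held 1 interferon response element and Psmb10 held 2. No match overlapped a match to another motif in these 5 windows.

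Among the 45 members with a promoter sequence, 15 held the Y box, against 3.19% of all 33469 promoters of the same length. Class II genes accounted for 7 of these 15, out of 9 with a sequence, and class I genes for 7, out of 26. The kappaB letters were in 5 member promoters, all class I (RT1-CE16, RT1-CE4, RT1-CE10, RT1-A1 and RT1-A2). Of all promoters 20 (0.0598%) held them, these 5 included. The letters were chosen as an element of class I promoters, so their place in class I genes was close to fixed in advance. Members with the kappaB letters ranged in level from 13.2 RPKM for RT1-CE16 to 0.524 RPKM for RT1-CE10, and 2 of the 5 had a mean of at least 1 RPKM, against 5 of all 26 class I genes with a sequence. The first letters of the kappaB and Y matches lay 119 bases apart in RT1-CE16 and RT1-CE4 and 118 bases apart in RT1-A2. The X2 letters were in 3 of the 45 members with a sequence, a share near the 5.70% of all promoters. In RT1-CE16 and RT1-CE15 they stood 49 bases before the Y box, and RT1-M3-1 held no Y box letters. Interferon response letters were in 8 members against 3.41% of all promoters, 5 of them among the 10 non-RT1 members with a sequence (B2m, Psmb10, Tap1, Tap2 and Tapbp). RT1-S2, RT1-N3 and RT1-S3 were the other carriers of these exact letters. A match is a description of letters and not of a bound site. The letters are those of a Brown Norway assembly, while the levels come from Dark Agouti cells, whose own promoters were not read. Only exact letters were searched, so an element that departs from them at any fixed base was not counted. A promoter without a match, such as that of RT1-CE16 or RT1-A2 for the interferon response letters, may thus still hold such an element.

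The libraries carried the marks of stem cells and few of other cell types. The spacing of the RPKM values gives read totals of 2991184 in replicate 1 and 3050685 in replicate 2, at which 3 reads in a 2 kb model equal 0.501 and 0.492 RPKM. All 8 stem cell markers, such as Pou5f1, were above 10 RPKM. None of 12 markers of blood and antigen-presenting cells reached a mean of 1 RPKM; their summed level was 1.64 in replicate 1 and 1.57 RPKM in replicate 2, and 7 of them, Itgam, Itgax, Csf1r, Cd79a, Cd3e, Cd14 and Tyrobp, were listed at 0 in both. Of 10 fibroblast and feeder cell markers 3 reached 1 RPKM (Col1a1, Col3a1 and Thy1), and their sum was 6.25 in replicate 1 and 11.4 RPKM in replicate 2, with Dcn and Pdgfrb at 0 in replicate 2 and Col1a2, Lum, Acta2 and S100a4 at 0 in both. Of 4 endothelial markers only Pecam1 reached 1 RPKM, at 61.6 ± 3.22 RPKM (SD, n = 2), and Cdh5 and Kdr were listed at 0.

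Most members were low or listed at 0. Genes averaging 1 RPKM or more are called detected, which held for 14 of 67 members (20.9%), against 46.4% of all genes of the table. Only 4 members averaged 10 RPKM or more (Pdia3, Calr, Canx and RT1-CE16), against 29.4% of all genes. In both libraries 38 members (56.7%) were listed at 0, against 38.2% of all genes. The median member was at 0 in each library, against a median of 0.536 ± 0.0284 RPKM (SD, n = 2) over all genes. The ribosomal protein gene Rps6, which every cell uses, was itself listed at 0 in both libraries, so a 0 in the table is no proof of silence. In bulk RNA, fewer cells that express a gene and less RNA of it per cell cannot be told apart. The 3 chaperones of the endoplasmic reticulum held 94.4% of the members' summed in replicate 1 and 94.6% in replicate 2.

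**Figure D1:**
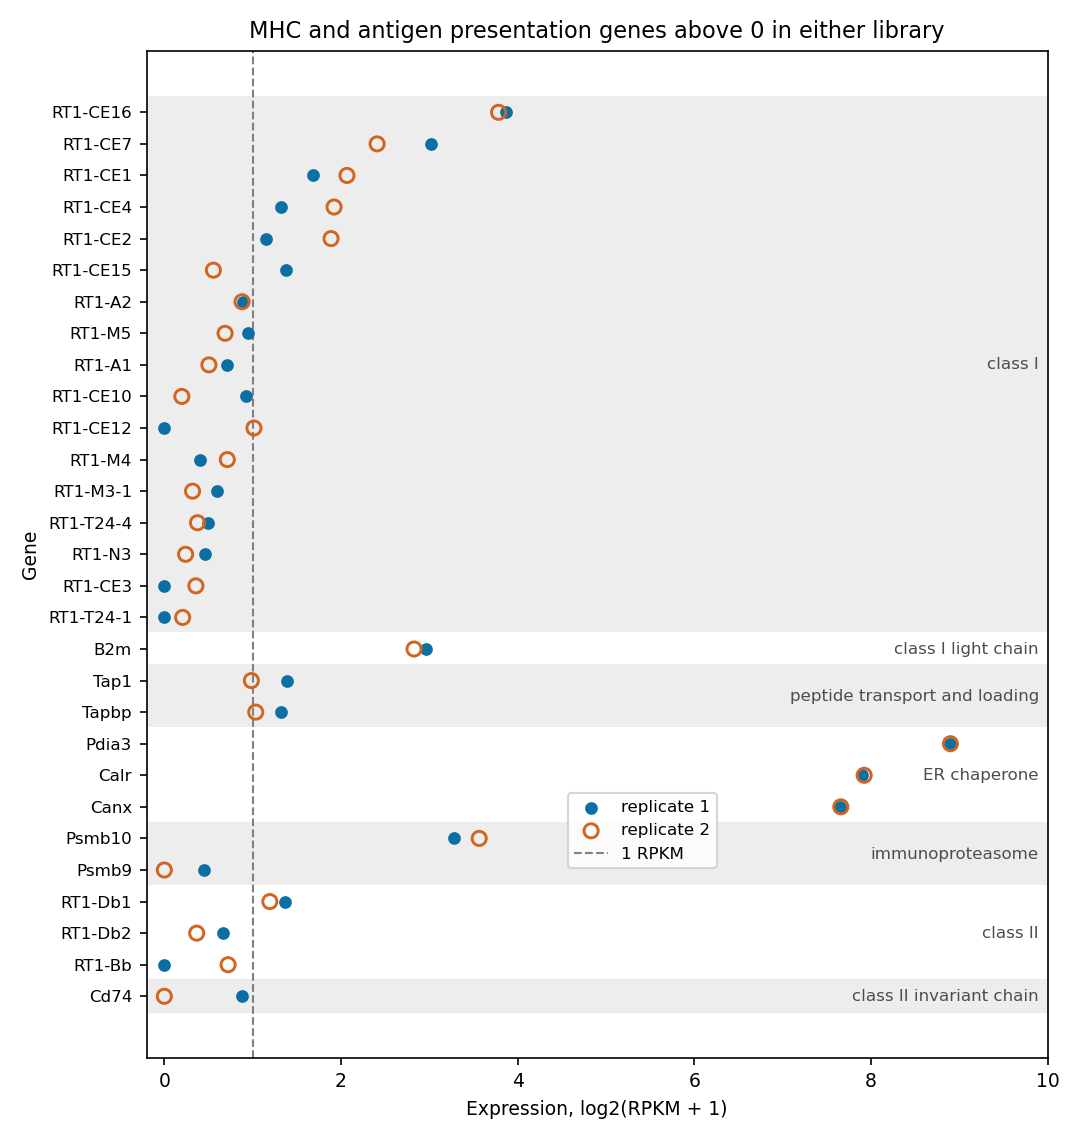
Expression of the 29 members above 0 in either library, on a log2(RPKM + 1) axis, with 1 gene per line grouped by role; filled points are replicate 1, open circles replicate 2, and the dashed line marks 1 RPKM. Calr, Canx and Pdia3 stand far to the right, RT1-CE16, Psmb10, B2m and RT1-CE7 between them and the remainder, and the other members lie lower, many of them left of the line.

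**Figure D2:**
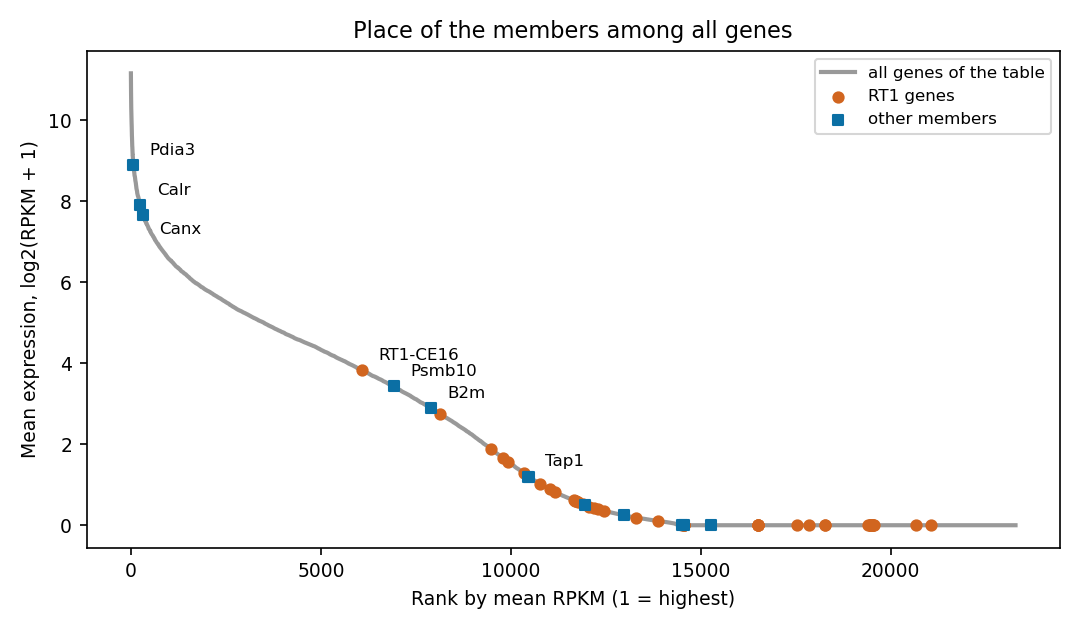
All 23282 genes by mean log2(RPKM + 1) in order of rank (line), with RT1 genes as circles and other members as squares. Pdia3 ranks 61st and RT1-CE16, the highest RT1 gene, 6073rd, and most RT1 genes lie on the flat stretch at 0.

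The class I heavy chain genes were expressed weakly, and almost all of the signal came from RT1-CE genes. Of 44 class I and class I-like RT1 genes 6 (13.6%) were detected, against 46.4% of all genes. All 6 were among the 10 RT1-CE genes, which are named for the RT1-C/E region and kept apart from the classical RT1-A genes. RT1-CE genes made up 87.5% of the summed class I in replicate 1 and 89.1% in replicate 2. The class I sum was 32.2 in replicate 1 and 31.1 RPKM in replicate 2, or 31.6 ± 0.821 RPKM (SD, n = 2).

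RT1-CE16 (Entrez gene 414819, chromosome 20, 5857676 to 5876456 on rn5, minus strand) was the highest of them, at 13.6 in replicate 1 and 12.8 RPKM in replicate 2. The smallest whole reads behind these values are 45 and 43 in a model of 1104 bp, with counting intervals (exact Poisson, 95%) of 9.94 to 18.2 RPKM and 9.24 to 17.2 RPKM. It alone made up 42.3% and 41.1% of the class I sum. RT1-CE7 followed at 7.12 in replicate 1 and 4.31 RPKM in replicate 2, from 47 and 29 reads. Its intervals, 5.23 to 9.47 RPKM and 2.89 to 6.19 RPKM, overlapped.

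The 4 other detected genes rested on fewer reads, and RT1-CE15 stood second among them in replicate 1 and last in replicate 2. RT1-CE1 was at 2.22 in replicate 1 and 3.19 RPKM in replicate 2, RT1-CE4 at 1.5 and 2.79 RPKM, and RT1-CE2 at 1.22 and 2.70 RPKM. RT1-CE15 was at 1.60 in replicate 1 and 0.470 RPKM in replicate 2, from 10 and 3 reads. RT1-CE1, RT1-CE4 and RT1-CE2 were thus higher in replicate 2, where the fibroblast marker sum was also higher, while RT1-CE16, RT1-CE7 and RT1-CE15 were higher in replicate 1; the part of fibroblasts in this was not tested. The means of these neighbours in level were 2.70 RPKM for RT1-CE1, 2.14 RPKM for RT1-CE4, 1.96 RPKM for RT1-CE2 and 1.03 RPKM for RT1-CE15, with SDs of 0.687 to 1.04 RPKM, and no neighbouring pair differed by more than the larger SD of the pair.

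Below 1 RPKM stood 11 further class I genes, and 27 (61.4%) were listed at 0 in both libraries, against 38.2% of all genes. The highest 3 were RT1-A2 (0.857 and 0.841 RPKM), RT1-M5 (0.934 and 0.610 RPKM) and RT1-A1 (0.640 and 0.419 RPKM), in replicate 1 and replicate 2. RT1-A1 and RT1-A2 are the genes that the table calls class Ia, the classical genes that restrict T cells in rats. Their 4 values lay between 0.419 and 0.857 RPKM, below those of RT1-CE16 in each library. Of 19 RT1-M genes, a series that includes class Ib genes, none was detected and 16 (84.2%) were listed at 0 in both. Of 13 genes of the T, N, O, S, P and V series none was detected either, and 10 (76.9%) were listed at 0 in both. All 14 class I members with -ps in their symbol, which marks pseudogenes, were listed at 0, RT1-M genes among them. Of the 30 class I members without -ps 13 (43.3%) were listed at 0 in both, against 38.2% of all genes. Listed at 0, too, were all 32 rows outside the RT1 names that the table describes as class I gene fragments or as class I or class II antigens. Near-identical class I genes can take reads from each other, so the level of a single row is uncertain, and how reads of repeated places were counted is not given in the sources used here. Rats of the Dark Agouti and Brown Norway strains carry different RT1 haplotypes, and the part of this in the mapping of reads was not tested.

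B2m, the light chain that every class I molecule needs (Entrez gene 24223, chromosome 3, 120627499 to 120633523), was at 6.76 in replicate 1 and 6.09 RPKM in replicate 2. These values correspond to 37 and 34 reads, with counting intervals of 4.76 to 9.32 RPKM and 4.22 to 8.52 RPKM. On the same per-length scale the summed class I heavy chain level was 4.76 times that of B2m in replicate 1 and 5.10 times in replicate 2. A read that fits several class I rows could count in several of them or in none, and the effect on the sum was not tested. B2m ranked 7887th of 23282 genes, below the median of the 10814 detected genes, which was 16.7 ± 0.151 RPKM (SD, n = 2).

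The dedicated peptide-loading genes were near the limit of detection. Tap1, a chain of the peptide transporter, was at 1.62 in replicate 1 and 0.980 RPKM in replicate 2, from 13 and 8 reads. Tapbp, the tapasin gene, was at 1.5 and 1.05 RPKM, from 7 and 5 reads. Tap2, the other chain of the transporter, was listed at 0 in both libraries.

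The general chaperones were among the most abundant transcripts. Pdia3, which forms a disulphide with tapasin, was at 475.6 in replicate 1 and 476.1 RPKM in replicate 2. Calr was at 237 and 241 RPKM, and Canx at 199 and 201 RPKM. Their ranks were 61, 245 and 318, and they differed little between libraries. Other genes of glycoprotein folding stood at similar levels: 8 of 9 listed were detected, against 46.4% of all genes. Of these 7 reached 100 RPKM, and the median of the list was 169 ± 2.63 RPKM (SD, n = 2). Hsp90b1 (445 ± 0.854 RPKM), Hspa5 (393 ± 11.2 RPKM) and Pdia6 (335 ± 5.61 RPKM) were highest. Tapbpl, which like tapasin edits the peptides of class I molecules, was the one below 1 RPKM, at 0.709 in replicate 1 and 0.521 RPKM in replicate 2.

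The immunoproteasome subunits lay below the constitutive subunits whose place they take. Psmb10 was at 8.70 in replicate 1 and 10.8 RPKM in replicate 2, against 357 and 359 RPKM for Psmb7. The difference was -5.07 ± 0.20 on the log2(RPKM + 1) scale (SD, n = 2), larger than the spread between the libraries. Psmb9 was at 0.366 RPKM in replicate 1, which 1 read can give, and 0 in replicate 2, against 6.49 and 4.24 RPKM for Psmb6. Psmb8 was listed at 0 in both, against 118 and 130 RPKM for Psmb5. On the log2(RPKM + 1) scale the differences were -2.42 ± 0.05 for Psmb9 minus Psmb6 and -6.96 ± 0.10 for Psmb8 minus Psmb5, values that the added 1 RPKM sets where a gene is at 0.

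Psmb6, a subunit of every standard proteasome, was itself low beside Psmb5 and Psmb7, with which it is assembled in equal number. The table also lists a gene described as Psmb6-like on chromosome 2, LOC100360846, at 1.29 in replicate 1 and 2.11 RPKM in replicate 2, and another on the X chromosome, LOC688853, at 0. Whether reads were divided between these rows was not tested. Psmb8 and Tap2 are the only members with 2 rows in the table, a pair of copies each on chromosome 20, all of them at 0. Of the 420 genes with more than 1 row 31.4% were listed at 0 in both libraries, against 38.4% of the 22862 genes with 1 row; the part of the second row in these values was not tested.

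**Figure D3:**
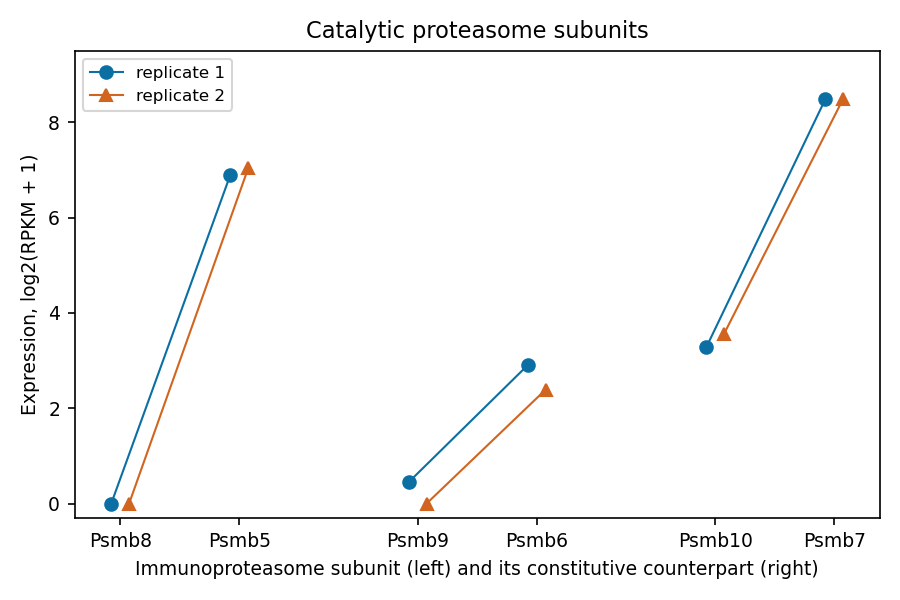
Immunoproteasome subunits (left of each pair) and the constitutive subunits they replace (right), in log2(RPKM + 1); lines join the values of 1 library, circles for replicate 1 and triangles for replicate 2. Every line climbs to the constitutive subunit, and the Psmb9 and Psmb6 pair lies lowest at its right end.

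The proteasome activators were split. Psme3 (62.2 ± 5.83 RPKM), Psme4 (42.6 ± 2.02 RPKM) and Psme1 (22.7 ± 1.32 RPKM; SD, n = 2 for each) were detected. Psme2, which joins Psme1 in the interferon-induced activator ring, was at 0.249 in replicate 1 and 0.732 RPKM in replicate 2. A row described as Psme2-like, LOC100362709, was at 1.33 and 0.434 RPKM.

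Class II genes were close to undetected. Of 11 RT1 class II genes 1 (9.09%) was detected, against 46.4% of all genes. In both libraries 8 (72.7%) were listed at 0, against 38.2% of all genes. RT1-Db1, a beta chain gene, was at 1.58 in replicate 1 and 1.29 RPKM in replicate 2, from 6 and 5 reads. Its neighbour RT1-Db2 was at 0.590 and 0.289 RPKM, and RT1-Bb at 0 and 0.649 RPKM. The alpha chain genes RT1-Da, RT1-Ba and RT1-Ha, the peptide-exchange genes RT1-DMa and RT1-DMb, their modulators RT1-DOa and RT1-DOb, and the pseudogene RT1-Hb-ps1 were listed at 0. Cd74 was at 0.835 RPKM in replicate 1, which 3 reads can give, and 0 in replicate 2. Ciita was listed at 0 in both. Markers of antigen-presenting cells were at or near 0, as given above.

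On chromosome 20 the RT1 genes alternate with genes of other kinds, some of them strongly expressed. Between the outermost RT1 rows, from 155839 to 7478156 on rn5, the table holds 55 RT1 genes and 299 others. Detected were 7 of the RT1 genes (12.7%), and 35 (63.6%) were listed at 0, among them all 15 RT1 pseudogenes. Of the 30 class I genes without -ps in their symbol 6 (20%) were detected. Among the 299 others 69 (23.1%) were detected, but 77 of the 299 are olfactory receptor genes, with none detected, and 74 are pseudogenes or gene fragments, with 1 detected. Setting these and the non-RT1 members aside leaves 144 others, of which 67 (46.5%) were detected. The 46.4% of all genes keeps pseudogenes and olfactory receptors, and the 12.7% of RT1 genes keeps pseudogenes, so neither comes from a like set. Of the 144 others 8 reached 100 RPKM. The 5 highest were Tubb5, a tubulin gene, at 959.6 ± 4.31 RPKM, Pou5f1, which encodes Oct4, at 584 ± 9.94 RPKM, Ddx39b, an RNA helicase gene, at 263 ± 12.5 RPKM, Csnk2b at 174 ± 9.36 RPKM and Vars at 129 ± 3.68 RPKM (SD, n = 2 for each).

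By rn5 positions, Pou5f1 is the nearest gene of the table on one side of RT1-CE16, 18939 bases away. Tcf19 comes next at 1.20 in replicate 1 and 2.74 RPKM in replicate 2. On its other side lie Ring1, a Polycomb gene, at 7.92 ± 2.73 RPKM, and Hsd17b8 at 31.6 ± 0.198 RPKM. RT1-CE1 lies 13851 bases from Ddx39b, beyond which Atp6v1g2 was listed at 0. The pseudogenes Sacm2l-ps3 and Sacm2l-ps4 lie between RT1-CE1, RT1-CE2 and RT1-CE7, and both were listed at 0. On the outer side of RT1-CE7 lie Neu1 (4.46 ± 1.03 RPKM) and Slc44a4 (4.26 ± 0.0593 RPKM). RT1-CE4 stands between pseudogenes listed at 0, LOC224733l-4, Cdk2ap1-ps5 and Sacm2l-ps2, and RT1-CE3, which was at 0 and 0.281 RPKM. The rows of RT1-CE4 (6994667 to 6997483) and RT1-CE3 (7008109 to 7011516) lie inside that of RT1-CE12 (6969434 to 7019708), at 0 and 1.02 RPKM and on the same strand, so reads there could count for either row. The rows next to RT1-CE15, C4a, Hspa1a, Btnl5 and Btnl7, were all listed at 0 there. RT1-Db1 lies among class II genes only, RT1-Bb, RT1-Ba, RT1-Db2 and RT1-Da. All these neighbours are those of rn5, and the spacing differs on GRCr8. The rows of RT1-CE16, Tap1 and RT1-A2 start at 5857676, 6058850 and 7433459 on rn5. Their promoter sequences start at 3265444, 4668544 and 4872621 on GRCr8, and Tap1 is on the plus strand on rn5 but the minus strand on GRCr8. Whether the other neighbours hold in another assembly was not tested.

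**Figure D4:**
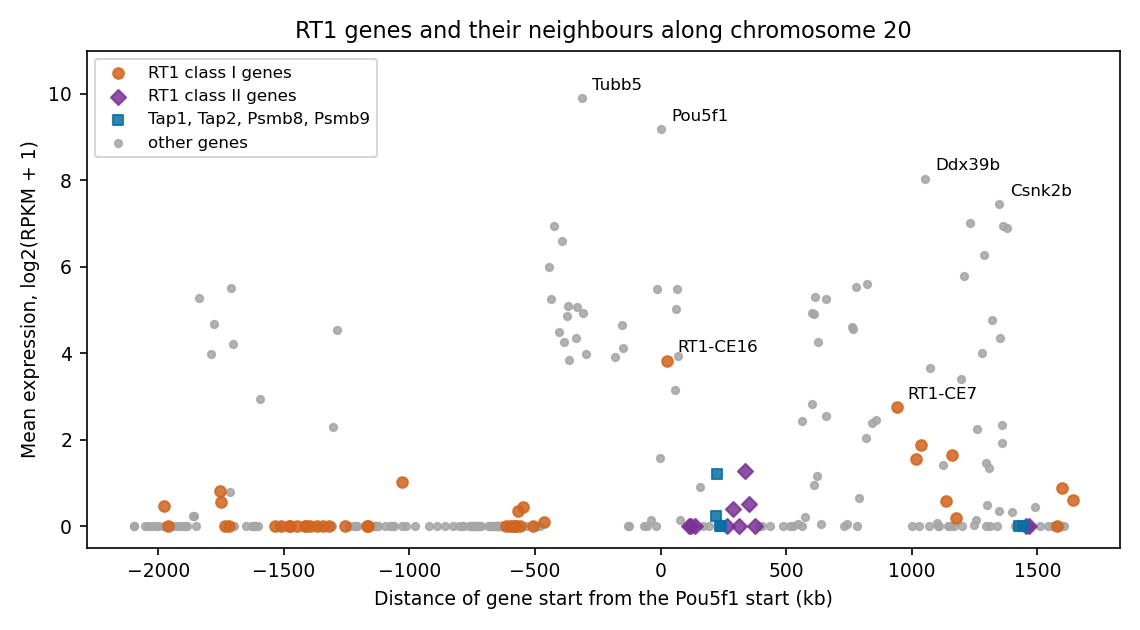
Mean log2(RPKM + 1) of each row by the distance of its start from that of Pou5f1, in kb, over most of the span that holds RT1 genes; 3 RT1 genes farther to the left are not drawn. Class I genes are orange circles, class II genes purple diamonds, Tap1, Tap2, Psmb8 and Psmb9 blue squares, and all other genes grey. RT1-CE16 lies close to Pou5f1 on rn5 and far below it, and most coloured points are at or near 0 beside grey points above 4.

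Genes that supply peptides or carry the signals to class I promoters were mostly detected, against 46.4% of all genes. Of 10 genes of peptide trimming and supply 9 were detected, with a median of 61.6 ± 1.08 RPKM (SD, n = 2). Thop1 (155 ± 4.78 RPKM), Sec61b (139 ± 8.48 RPKM) and Sec61a1 (112 ± 6.03 RPKM) were highest, and Erap1, which trims class I peptides inside the endoplasmic reticulum, was at 9.82 ± 0.696 RPKM. Of 20 genes that regulate class I and II transcription 16 were detected, with a median of 14.9 ± 0.0129 RPKM. Atf1 (114 ± 1.95 RPKM), the Y box factor gene Nfyb (69.8 ± 4.38 RPKM) and Ezh2 (63.2 ± 1.21 RPKM), a silencing enzyme, were highest, and Nr2f2 was listed at 0. The 3 genes of the X box complex, Rfx5 (6.11 ± 1.32 RPKM), Rfxap (15.7 ± 0.210 RPKM) and Rfxank (15.8 ± 2.32 RPKM), were all detected, as was Irf1 (5.20 ± 1.68 RPKM).

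All 6 measured interferon receptor and kinase genes passed 1 RPKM, against 46.4% of all genes, and their median was 14.6 ± 0.0129 RPKM (SD, n = 2). Jak1 (23.0 ± 0.553 RPKM), Jak2 (18.0 ± 1.54 RPKM) and Ifngr1 (14.8 ± 1.26 RPKM) were highest. Genes of the class II compartment were detected although most class II genes were not. Of 10 measured genes 9 passed 1 RPKM, against 46.4% of all genes, and the median of this compartment was 99.1 ± 3.76 RPKM. Its highest were the lysosomal genes Ctsl1 (268 ± 3.94 RPKM), Lamp1 (213 ± 16.9 RPKM) and Ctsb (185 ± 7.67 RPKM), and Ctss, the protease that trims the invariant chain in antigen-presenting cells, was listed at 0.

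Class I-like genes outside the RT1 names and costimulatory genes were detected in part, against 46.4% of all genes. Of 9 measured class I-like genes 3 were detected, Cd1d1 (10.5 ± 0.491 RPKM), which presents lipids, Fcgrt (2.56 ± 0.870 RPKM), the receptor of antibody transport, and Raet1e (0.690 in replicate 1 and 1.52 RPKM in replicate 2), a ligand of a natural killer cell receptor. Mr1, Azgp1, Mill1 and Raet1l were listed at 0. Of 7 costimulatory or adhesion genes 3 were detected, a share near that of all genes: Icam1 (13.9 ± 2.06 RPKM), Cd80 (5.05 in replicate 1 and 7.58 RPKM in replicate 2) and Cd47 (5.33 ± 0.259 RPKM), while Cd86, Cd274 and Pdcd1lg2 were listed at 0.

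**Figure D5:**
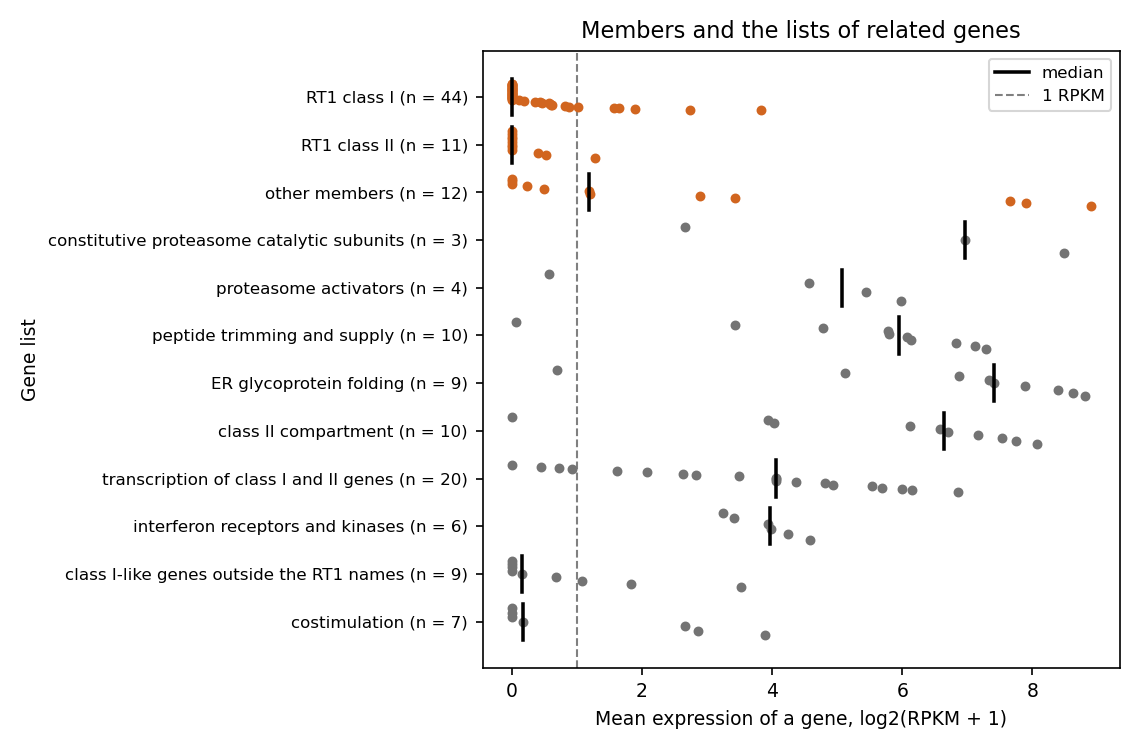
Mean log2(RPKM + 1) of each gene of the members (orange, 3 upper lines) and of 9 lists of related genes (grey), with 1 point per gene, the median as a black bar and 1 RPKM as a dashed line. RT1 class I and class II genes have medians at 0, and the medians of the lists for folding, peptide supply and the class II compartment lie above 5.

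The detected members were split evenly between the replicates. Of the 14 detected members 7 were higher in replicate 1 and 7 in replicate 2. None differed by over 2-fold in RPKM + 1, against 0.721% of the 10814 detected genes and 3.59% of the 1505 genes at 1 to 3 RPKM. RT1-CE15 came nearest, at 1.60 in replicate 1 and 0.470 RPKM in replicate 2, low values that the added 1 RPKM draws together. Below 1 RPKM 2 members, Cd74 and Psmb9, were above 0 in replicate 1 only, and 4, RT1-CE12, RT1-CE3, RT1-T24-1 and RT1-Bb, in replicate 2 only. Of these RT1-CE12 had the highest value, 1.02 RPKM, which 3 reads can give.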

How the data were processed

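Total RNA of 2 libraries of 1 rat embryonic stem cell line went through TruSeq RNA library preparation and paired-end sequencing of 50 bases, per the labels. The authors deposited 1 table of RPKM values, 1 column per library. CASAVA 1.8 and TopHat 1.4.0, and the builds rn5 and Rnor_5.0, are named in the submitters' processing notes; the counting tool, annotation release and handling of multiply mapping reads were not given in the sources used here. The table held 23716 rows, and rows of 1 Entrez identifier were summed.

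RPKM is no count, so no count model was used, and with 1 group nothing was tested between groups. Levels are given as both values, for most members and where 1 is at 0, or as means ± SD over 2 libraries. Marker lists of other cell types are given by counts and sums. Detected means averaging 1 RPKM or more. Genes were compared as log2(RPKM + 1), on which low genes seem closer than they are. Read totals are the smallest that made the most rows with a locus under 6000 bp whole (527 of 2700 rows above 0 in replicate 1 and 525 of 2688 in replicate 2). Reads per member use the shortest model, from 60 to 6000 bp, that made both values whole within 4e-07. They were found for 22 of 23 members above 0 in both libraries, can be too few by a common factor, and intervals and floors cover counting error only. The procedures were tested on simulated libraries.

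The members and lists were chosen with earlier results of these data known. Named are all detected members, the non-RT1 and class II members, the 3 highest class I genes below 1 RPKM, the 3 highest genes of each pathway list with those at 0 (Erap1, Tapbpl, Psme2, Rfx5, Rfxap, Rfxank and Irf1 were named after their values were seen), and, among genes between RT1 genes, the 5 highest and the 2 nearest on each side of a detected RT1 gene. All 67 members matched the RefSeq gene table of GRCr8 by identifier and 45 had a promoter sequence. Apart from those of RT1-CE16, Tap1 and RT1-A2, no GRCr8 coordinates were set against rn5. Alternatives were other minimums and pseudocounts, each library alone, rescaled libraries, the highest row per gene and a centred replicate 2. The work used Python 3.11.15 with pandas 2.3.3, scipy 1.17.1, numpy 2.4.6 and, for the plots, matplotlib 3.10.9.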

Additional observations from a re-analysis of the deposited data

How the results depend on the processing

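Of 66 values recomputed for 12 results under 11 settings, 46 stayed within 1.5 times of a reported count or within 1 SD of another value, 20 moved further and 0 changed sign. Some of these outcomes were fixed in advance. For values judged by SD, each of 2 libraries always lies within 1 SD of their mean, so leaving out a library could not move them. The highest row per gene could not change a member, because Psmb8 and Tap2, the only members with 2 rows, were at 0 in all rows. Counts, medians and sums cannot change sign. Counts of detected genes followed the minimum. At 0.3 RPKM 25 members, 14 class I genes, 3 class II genes and 17 RT1 genes of the chromosome 20 span were counted; at 3 RPKM 7 members, 2 class I genes, 0 class II genes and 2 RT1 genes of the span. With each library rescaled to a sum of 1000000, 21 members, 12 class I genes, 2 class II genes and 14 RT1 genes of the span were counted, the class I sum was 72.4, 3 members differed by over 2-fold between replicates, and the log2 differences were -8.15 for Psmb8 minus Psmb5 and -3.26 for Psmb9 minus Psmb6. A pseudocount of 0.1 RPKM gave -10.27 and -4.63 for these pairs and 2 members over 2-fold; without a minimum on the mean 1 member was over 2-fold. The member median was 0.994 RPKM over members of at least 0.1 RPKM. These settings rescale or select low values by their construction. Each library alone gave 13 to 14 detected members and a class I sum of 31.1 to 32.2 RPKM. No paired analysis was possible because both samples form 1 group. The read totals limit every statement on members below 1 RPKM.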
